A study of Mus musculus with 12 samples.

Results

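A group of 9 complement genes, out of the 33246 genes listed in the count table, was followed across fibroblasts from mouse ear grown on 4 alginate gels. They were chosen by name, as the listed complement components and regulators: C1ra, C1s1, Serping1, C4b, C3, Cfb, Cd55, Clu and C1qtnf6. The choice was made with earlier results of these data known. All 9 were found in the table and all 9 were among the 14542 genes with enough counts to be tested. The cells came from the ears of C57BL/6 mice aged 1 month, were used at passage 2 and were kept in medium with 10% fetal bovine serum. For each sample 500000 cells were seeded on a gel and collected after 48 h. The gels were covalently crosslinked (elastic, with little stress relaxation) or ionically crosslinked (viscoelastic, slowly relaxing), each with an initial modulus of 2 kPa or 20 kPa. The 4 groups were thus 2-kPa elastic, 20-kPa elastic, 2-kPa viscoelastic and 20-kPa viscoelastic, with 3 samples in each. The study describes its 3 samples per group as biological replicates. Whether they came from separate mice is not given in the sources used here, so p-values measure the spread between these samples.

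Complement is a protease cascade of blood and tissue fluid that tags surfaces for removal and can perforate membranes. In the classical pathway the C1 complex, in which C1q carries the proteases C1r and C1s, cleaves C4 and C2. The resulting convertase cleaves C3, and factor B, with C3b, amplifies that step through the alternative pathway. Liver makes most of the circulating components, but fibroblasts also make many of them, and inflammatory cytokines raise several of these genes. C1 inhibitor, the product of Serping1, inactivates C1r and C1s, and the membrane protein CD55 speeds the decay of C3 convertases.

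The samples held 36626221 to 43612804 counts. Levels are given in CPM, counts scaled to a common library size, with TMM factors that ran from 0.968 to 1.03. Changes are log2 fold changes from one edgeR quasi-likelihood fit to all 12 samples, and a gene was called changed where its p, adjusted by Benjamini-Hochberg (BH) over the tested genes, was under 0.05. The 10 fibroblast markers examined, which included Col1a1, Dcn and Pdgfra, summed to 24320 to 29782 CPM, with no marker at 0. Markers of macrophages summed to 8.45 to 13.3 CPM, of keratinocytes to 2.897 to 5.07 CPM, of endothelium to 2.02 to 3.51 CPM, of Schwann cells and melanocytes to 3.26 to 5.38 CPM and of adipocytes to 0 to 0.264 CPM. The 5 chondrocyte markers summed to 4096 to 5775 CPM, mostly from Col2a1 at a mean of 2839 CPM, while Matn1 was near 0. The cells therefore carried cartilage transcripts as well as those of fibroblasts. In such bulk RNA, fewer cells of a type and less RNA per cell cannot be told apart.

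Of the 9 genes, 5 had a promoter entry in the RefSeq table of GRCm38.p6. Those of C3, C1s1 and Cd55 are shown, as a member of each role (component, protease, regulator) whose 250 bases before the start held no annotated exon. All are on the minus strand and are printed 5′ to 3′ in the direction of the gene, up to the base before the start. The windows are chr17:57228137-57228386 for C3, chr6:124542360-124542609 for C1s1 and chr1:130462745-130462994 for Cd55. Capitals mark letters that match a searched motif on either strand.
C3: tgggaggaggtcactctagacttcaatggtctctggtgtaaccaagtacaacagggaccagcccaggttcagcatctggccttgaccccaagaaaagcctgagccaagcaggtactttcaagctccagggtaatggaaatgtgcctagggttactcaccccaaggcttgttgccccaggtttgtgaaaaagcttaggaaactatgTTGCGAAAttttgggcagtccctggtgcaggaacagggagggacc
C1s1: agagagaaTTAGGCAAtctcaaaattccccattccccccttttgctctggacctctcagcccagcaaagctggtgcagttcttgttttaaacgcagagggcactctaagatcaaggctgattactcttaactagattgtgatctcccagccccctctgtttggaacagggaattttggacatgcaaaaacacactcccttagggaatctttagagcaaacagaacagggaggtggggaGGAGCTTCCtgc
Cd55: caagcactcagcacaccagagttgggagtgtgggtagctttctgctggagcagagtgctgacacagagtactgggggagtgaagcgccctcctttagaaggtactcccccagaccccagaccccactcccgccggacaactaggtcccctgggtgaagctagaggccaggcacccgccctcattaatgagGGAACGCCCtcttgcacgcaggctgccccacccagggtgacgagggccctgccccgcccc
The motifs searched were TTGCNNAA (C/EBP-like), GGNNNTTCC (NF-kB-like), TTCNNNGAA (STAT-like) and TATAAA. The C3 window held one C/EBP-like match, from 45 to 38 bases before the start. The C1s1 window held a C/EBP-like match on the other strand from 242 to 235 bases and an NF-kB-like match from 12 to 4 bases before the start, and the Cd55 window an NF-kB-like match on the other strand from 60 to 52 bases before it. No STAT-like or TATA letters were found in these 3 windows. Of 32851 promoter windows of the same length, 9.56% held the C/EBP-like, 15.7% the NF-kB-like, 7.02% the STAT-like and 12.4% the TATA letters. These matches describe letters only. The entries of C1ra and C1qtnf6 are not shown, and C4b, Cfb, Serping1 and Clu are named only.

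The 9 genes spanned a wide range of levels. Per kilobase of annotated exon (RPKM, mean of the 12 samples), C3 stood at 234, C4b at 96.1, C1s1 at 41.5, Serping1 at 39.9, C1ra at 35.2, Clu at 27.2, C1qtnf6 at 14.0, Cd55 at 6.71 and Cfb at 0.193. C3, the central component, thus led, and Cfb, with 15 to 34 counts per sample, was the only member under 1 RPKM. The Cfb level is uncertain, since the protein-coding gene Gm20547 overlaps it on the same strand. Between the lowest and the highest sample the CPM of Serping1 differed 4.10-fold, of C1s1 3.29-fold and of C1ra 3.20-fold, against 1.36-fold for C1qtnf6, 1.55-fold for C4b and 1.60-fold for C3. The plot of levels by sample shows all 9.

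**Figure D1:**
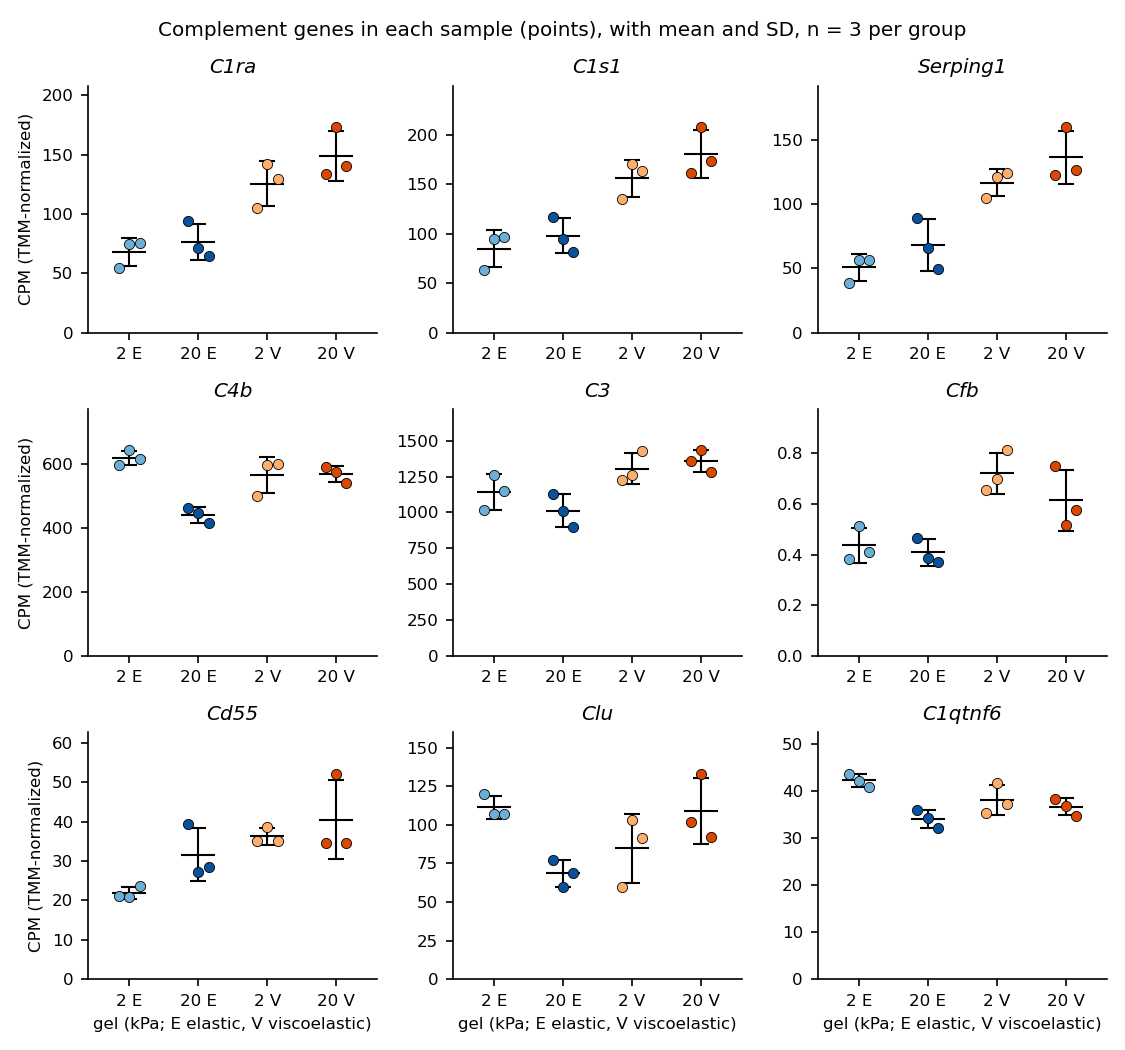
Level of each of the 9 complement genes (CPM after TMM scaling, linear axis from 0) in the 12 samples, by gel (E elastic, V viscoelastic, 2 or 20 kPa). Points are samples, and bars give the group mean and SD (n = 3). C1ra, C1s1, Serping1 and, by a small margin, Cfb were higher in each viscoelastic sample than in any elastic sample. The share of all tested genes that separate in this way was not counted. C4b was lowest in the 3 samples on 20-kPa elastic gels.

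The first question was whether these genes differed between gel types at a given stiffness. The gel types differ in crosslinker (covalent or calcium) as well as in stress relaxation, and these cannot be told apart here. At 2 kPa, 5 of the 9 rose from elastic to viscoelastic gels, namely C1ra, C1s1, Serping1, Cfb and Cd55, where 8.77% of all tested genes rose. The call of Cfb held in only 5 of 20 alternatives and was not given by DESeq2's Wald test (adjusted p = 0.117). At 20 kPa, 6 of the 9 were higher, namely C1ra, C1s1, Serping1, C4b, C3 and Clu, where 17.4% of all tested genes rose. None of the 9 fell in either comparison (edgeR, BH-adjusted p under 0.05), although at 2 kPa C1qtnf6 and Clu were lower at an unadjusted p of 0.0456 and 0.0307. DESeq2's Wald test also called none of the 9 lower (adjusted p of 0.16 and 0.174 for these genes at 2 kPa). Both were called lower without the second 2-kPa viscoelastic sample (adjusted p = 0.036 and 0.0335), and Clu also with every gene with a count tested (adjusted p = 0.00864). The median change of the 9 was 0.72 at 2 kPa and 0.59 at 20 kPa on the log2 scale, beside −7.5e-05 and 0.016 over all tested genes. Since the 9 were chosen with earlier results of these data known, the shares and medians only describe this list.

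The second question was whether stiffness moved them. On elastic gels, Cd55 was higher at 20 than at 2 kPa, where 6.81% of all tested genes rose, and C4b, Clu and C1qtnf6 were lower, where 7.14% fell. Without the first 2-kPa elastic sample this count of 4 dropped to 2, since the calls of Cd55 and Clu were lost. On viscoelastic gels 0 of the 9 passed by edgeR's quasi-likelihood test or by DESeq2's Wald test, and 1, Clu, had an unadjusted edgeR p under 0.05. In that comparison 2.28% of all tested genes changed in either direction. The difference between these stiffness effects was tested as an interaction, in which a positive value means a higher stiffness effect on the viscoelastic than on the elastic type. It passed for C4b and Clu, both positive, beside 4.45% of all tested genes with a positive interaction.

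**Figure D2:**
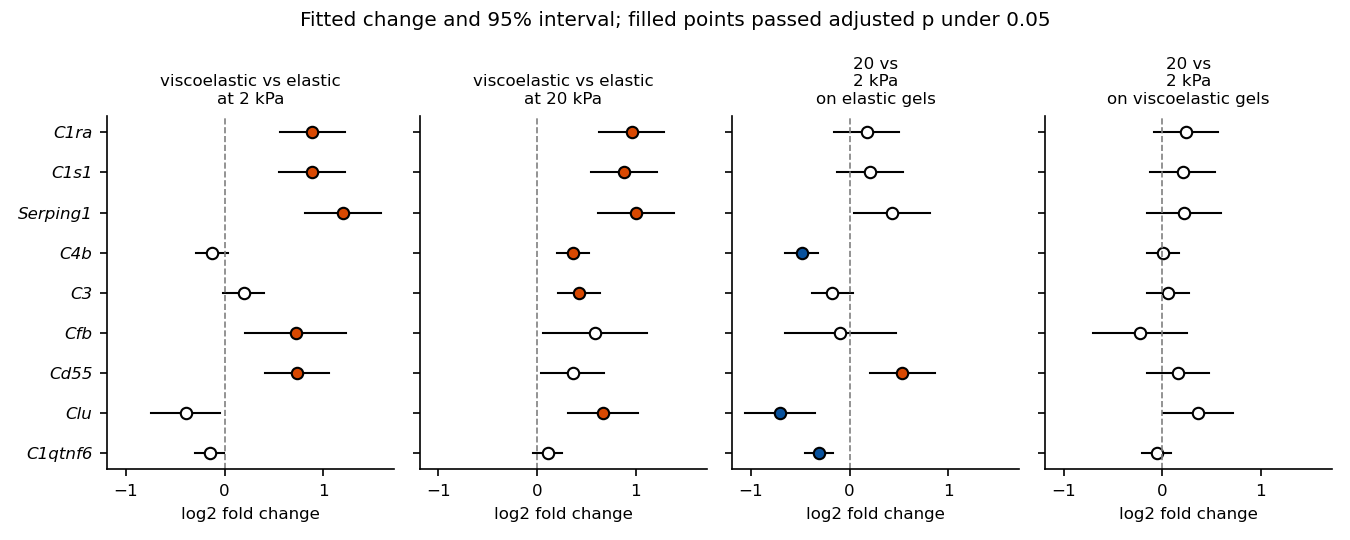
Fitted log2 fold change (point) with its 95% interval (line) for each of the 9 genes in 4 comparisons of groups (3 samples each). Orange points rose and blue points fell at a BH-adjusted p under 0.05, and white points did not pass. C1ra, C1s1 and Serping1 lay at or above 0.88 in both viscoelastic comparisons, and no point is filled in the comparison of stiffness on viscoelastic gels.

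C1ra (chr6:124512405-124523443, plus strand, mm10, GENCODE M21) encodes C1r, the protease of the C1 complex that activates itself and then C1s. Its levels were 54.2, 74.7 and 75.3 CPM on 2-kPa elastic gels, 93.9, 71.7 and 64.7 on 20-kPa elastic gels, 105, 142 and 130 on 2-kPa viscoelastic gels and 134, 173 and 140 on 20-kPa viscoelastic gels. All 6 viscoelastic samples exceeded all 6 elastic samples, and the groups of either gel type overlapped. How many of all tested genes separate the gel types in this way was not counted, for C1ra or for the members below. The viscoelastic mean was 1.85 times the elastic one at 2 kPa (95% interval 1.47 to 2.32, BH-adjusted p = 0.00135) and 1.94 times at 20 kPa (1.55 to 2.44, adjusted p = 0.00041). Stiffness gave changes of 0.17 ± 0.15 (log2 ± SE) on elastic and 0.24 ± 0.15 on viscoelastic gels, neither of which passed (adjusted p = 0.499 and 0.408).

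C1s1 (chr6:124530345-124542359, minus strand) encodes C1s, the protease that cleaves C4 and C2. Its levels were 63.1, 94.99 and 96.4 CPM on 2-kPa elastic gels, 117, 94.99 and 81.7 on 20-kPa elastic gels, 135, 170 and 163 on 2-kPa viscoelastic gels and 161, 208 and 173 on 20-kPa viscoelastic gels. Here too each viscoelastic sample lay above each elastic sample. The ratio of viscoelastic to elastic levels was 1.84 at 2 kPa (1.46 to 2.32, adjusted p = 0.0016) and 1.84 at 20 kPa (1.46 to 2.32, adjusted p = 0.00081). The interaction of stiffness and gel type did not pass, with a 95% interval of −0.47 to 0.47 on the log2 scale. The change with stiffness was 0.21 ± 0.16 (log2 ± SE) on elastic and 0.21 ± 0.15 on viscoelastic gels, and neither passed (adjusted p = 0.415 and 0.499).

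Serping1 (chr2:84765387-84775444, minus strand) encodes C1 inhibitor, a serpin that also restrains plasma kallikrein. Its levels were 38.9, 56.3 and 56.6 CPM on 2-kPa elastic gels, 89.0, 65.9 and 49.2 on 20-kPa elastic gels, 105, 121 and 124 on 2-kPa viscoelastic gels and 123, 160 and 126 on 20-kPa viscoelastic gels. The viscoelastic samples again lay above all elastic ones, and the first sample on 20-kPa elastic gels was the highest of the elastic samples for Serping1, C1ra and C1s1 alike. Serping1 showed the largest change of the 9 genes with gel type, 2.30-fold at 2 kPa (1.76 to 3.01, adjusted p = 0.000519) and 2.00-fold at 20 kPa (1.54 to 2.61, adjusted p = 0.000837). On elastic gels it was higher at 20 kPa by 0.43 ± 0.18 on the log2 scale, which did not pass (adjusted p = 0.131). That value was 0.20 without the first and 0.61 without the third 20-kPa elastic sample, and 2 of 20 alternatives called it (adjusted p of 0.00782 to 0.456).

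For C1ra, C1s1 and Serping1 the order of the group means was the same: 20-kPa viscoelastic, 2-kPa viscoelastic, 20-kPa elastic and 2-kPa elastic. In that order only the neighbours 2-kPa viscoelastic and 20-kPa elastic differed beyond their spread, with adjusted p of 0.00498, 0.00745 and 0.00697. The calls of viscoelastic over elastic for these 3 genes held in each of the 20 alternative settings at 2 kPa and at 20 kPa.

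The levels of C1ra and C1s1 kept a nearly fixed proportion within a sample. The C1ra count was 0.754 to 0.859 times the C1s1 count in the 12 samples (mean 0.805 ± 0.0299, SD), while C1s1 itself ranged over 3.29-fold. Over the 12 samples C1ra had the profile most like that of C1s1 among all other tested genes, at a root mean square distance of 0.0512 between their centred log2 CPM. The genes are neighbours on chromosome 6 with opposite strands, and 6901 bases separate their ends. The Serping1 count was 0.587 to 0.775 times the C1s1 count. That ratio was 0.599 ± 0.0158 (SD, n = 3) on 2-kPa elastic, 0.685 ± 0.0794 on 20-kPa elastic, 0.748 ± 0.0352 on 2-kPa viscoelastic and 0.753 ± 0.0213 on 20-kPa viscoelastic gels, so the 2-kPa elastic samples lay lowest, with a range that overlapped that on 20-kPa elastic gels. These ratios are descriptions and were not tested.

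**Figure D3:**
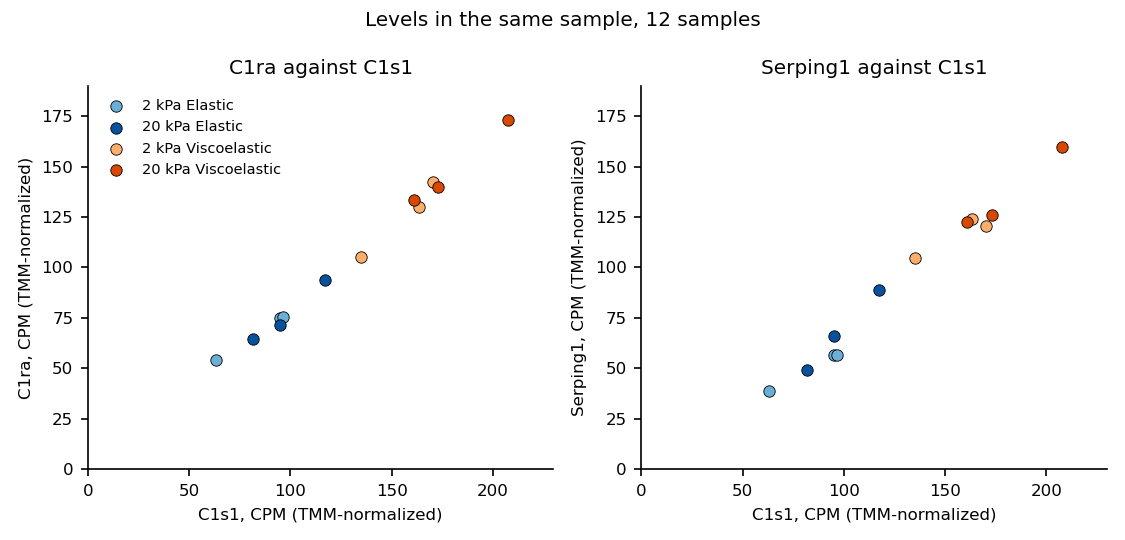
C1ra (left) and Serping1 (right) against C1s1 in the same sample, in CPM on linear axes from 0, for 12 samples coloured by group. C1ra ran from 54.2 to 173 CPM and C1s1 from 63.1 to 208 CPM with a count ratio of 0.754 to 0.859, and the 6 viscoelastic samples lie above and to the right of the 6 elastic samples.

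C4b (chr17:34728380-34743882, minus strand) encodes C4, the substrate of C1s. Its levels were 596, 642 and 615 CPM on 2-kPa elastic gels, 463, 444 and 415 on 20-kPa elastic gels, 499, 596 and 598 on 2-kPa viscoelastic gels and 590, 573 and 539 on 20-kPa viscoelastic gels. The 3 samples on 20-kPa elastic gels were lower than the other 9, which overlapped except for 20-kPa viscoelastic against 2-kPa elastic gels. On elastic gels C4b fell by 0.49 ± 0.08 from 2 to 20 kPa (log2 ± SE, adjusted p = 0.000892), and at 20 kPa it was 1.29-fold higher on viscoelastic gels (1.15 to 1.44, adjusted p = 0.0024). At 2 kPa the change with gel type was −0.13 ± 0.08 (adjusted p = 0.246), and on viscoelastic gels the change with stiffness had a 95% interval of −0.16 to 0.17. The interaction was 0.49 ± 0.11 (adjusted p = 0.0118). From highest to lowest the means stood at 618 (2-kPa elastic), 567 (20-kPa viscoelastic), 564 (2-kPa viscoelastic) and 441 CPM (20-kPa elastic), and only the lowest step passed (adjusted p = 0.00485).

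C3 (chr17:57203970-57228136, minus strand) encodes the component on which the pathways converge. Its levels were 1016, 1264 and 1147 CPM on 2-kPa elastic gels, 1125, 1013 and 896 on 20-kPa elastic gels, 1227, 1261 and 1428 on 2-kPa viscoelastic gels and 1361, 1433 and 1281 on 20-kPa viscoelastic gels. At 20 kPa the groups did not overlap and C3 was 1.34-fold higher on viscoelastic gels (1.16 to 1.55, adjusted p = 0.00449). At 2 kPa the groups overlapped, and the ratio of 1.14 did not pass (0.988 to 1.32, adjusted p = 0.182). The interaction did not pass either (0.23 ± 0.14, adjusted p = 0.353), so the effects at 2 and 20 kPa were not shown to differ. No pair of neighbours in the order of the 4 means, 1358, 1305, 1142 and 1011 CPM, differed beyond its spread. The C4b count was 0.544 ± 0.0400 (SD, n = 3) of the C3 count on 2-kPa elastic gels and 0.438 ± 0.0258, 0.433 ± 0.0349 and 0.418 ± 0.0170 on 20-kPa elastic, 2-kPa viscoelastic and 20-kPa viscoelastic gels.

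Cfb (chr17:34856374-34862518, minus strand) encodes factor B, the protease of the alternative pathway. It was scarce, with 16, 21 and 15 counts on 2-kPa elastic gels, 20, 17 and 15 on 20-kPa elastic gels, 28, 29 and 34 on 2-kPa viscoelastic gels and 32, 22 and 23 on 20-kPa viscoelastic gels. Each viscoelastic sample exceeded each elastic sample, though counting error is large at such low counts. The ratio of viscoelastic to elastic levels was 1.65 at 2 kPa (1.16 to 2.35, adjusted p = 0.0457) and 1.502 at 20 kPa (1.05 to 2.16, adjusted p = 0.0782). The call at 2 kPa held in 5 of 20 alternatives, with an adjusted p of 0.0385 to 0.164, and was lost with the replicate number as a block (adjusted p = 0.0698) and without any one of 10 samples. Over both stiffnesses Cfb was 1.57-fold higher on viscoelastic gels (1.22 to 2.03, adjusted p = 0.00724), a call that all 19 alternatives gave. Reads from the miRNA gene Mir6972, which lies in Cfb on the same strand, came to 15 in all samples against 272 for Cfb. The protein-coding gene Gm20547 also overlaps Cfb on that strand and was not analysed here. How reads in such an overlap were counted is not stated, so both the counts and the level of Cfb are uncertain.

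Cd55 (chr1:130439027-130462744, minus strand) encodes the membrane-anchored factor that speeds the decay of C3 convertases. Its levels were 21.1, 20.8 and 23.6 CPM on 2-kPa elastic gels, 39.3, 27.1 and 28.4 on 20-kPa elastic gels, 35.0, 38.8 and 35.1 on 2-kPa viscoelastic gels and 34.7, 52.2 and 34.7 on 20-kPa viscoelastic gels. The 2-kPa elastic samples lay below all others, and the other 3 groups overlapped. At 2 kPa Cd55 was 1.66-fold higher on viscoelastic gels (1.32 to 2.08, adjusted p = 0.0043), and at 20 kPa the ratio of 1.28 did not pass (1.03 to 1.60, adjusted p = 0.0785). The log2 change at 20 kPa was 0.36, and ran from 0.13 without the second 20-kPa viscoelastic sample to 0.53 without the first 20-kPa elastic sample. It was called in 3 of 20 alternatives, with an adjusted p of 0.00794 to 0.454. On elastic gels it was higher at 20 kPa by 0.53 ± 0.15 (log2 ± SE, adjusted p = 0.0313). That call was lost without any one 2-kPa elastic sample or without the first 20-kPa elastic sample (log2 changes of 0.36 to 0.59, adjusted p of 0.0519 to 0.116). The interaction did not pass (−0.37 ± 0.21, adjusted p = 0.33), and in the order of the 4 means only the step from 20-kPa to 2-kPa elastic gels did.

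Clu (chr14:65968483-65981547, plus strand) encodes clusterin, a secreted chaperone that also binds terminal complement complexes. Its levels were 120, 107 and 107 CPM on 2-kPa elastic gels, 77.0, 59.4 and 69.0 on 20-kPa elastic gels, 59.6, 103 and 91.4 on 2-kPa viscoelastic gels and 102, 133 and 92.0 on 20-kPa viscoelastic gels. The samples on 20-kPa elastic gels lay below those on 2-kPa elastic and on 20-kPa viscoelastic gels, with no overlap, whereas the first sample on 2-kPa viscoelastic gels was as low as the lowest of them. Clu fell by 0.70 ± 0.17 (log2 ± SE) with stiffness on elastic gels (adjusted p = 0.0118), a call lost without the first 2-kPa or without the second 20-kPa elastic sample (adjusted p = 0.0511 and 0.0537). At 20 kPa it was 1.59-fold higher on viscoelastic gels (1.24 to 2.04, adjusted p = 0.00676). At 2 kPa all viscoelastic samples lay below all elastic ones, yet the change did not pass (−0.40 ± 0.17, adjusted p = 0.106). It ran from −0.56 without the second to −0.20 without the first 2-kPa viscoelastic sample, and 2 of 20 alternatives called it. The interaction was 1.07 ± 0.23 (adjusted p = 0.0121), the largest of the 9. No neighbours in the order of the means (111, 109, 84.7 and 68.5 CPM) differed beyond their spread.

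Markers of cartilage and of fibroblasts also differed between these groups. The 5 chondrocyte markers summed to 4096, 4152 and 4136 CPM on 20-kPa elastic gels, 4405, 5710 and 5718 on 2-kPa elastic gels, 4338, 5602 and 5036 on 2-kPa viscoelastic gels and 5775, 4503 and 5186 on 20-kPa viscoelastic gels. All 3 samples on 20-kPa elastic gels lay below the other 9, but this sum was not tested. Most of it came from Col2a1 (mean 2417 CPM on 20-kPa elastic gels). Col2a1 was not called with stiffness on elastic gels or with gel type at 20 kPa. Of the 4 markers tested, Acan and Col9a1 fell with stiffness on elastic gels (−0.50 and −0.69 on the log2 scale, adjusted p = 0.00767 and 0.00496), Col9a1 and Comp were higher on viscoelastic gels at 20 kPa (0.87 and 0.64, adjusted p = 0.000441 and 0.00175), and Acan was lower there at 2 kPa (−0.47, adjusted p = 0.00847). Col9a1 had a positive interaction of 1.01 (adjusted p = 0.00589). The mean of Acan was lowest on 20-kPa viscoelastic gels (1020 CPM, against 1029 on 20-kPa elastic gels). The 10 fibroblast markers summed to 24320 to 26255 CPM on 20-kPa elastic gels, 25867 to 27005 on 2-kPa elastic gels, 25088 to 28908 on 2-kPa viscoelastic gels and 27609 to 29782 on 20-kPa viscoelastic gels, so that 20-kPa elastic gels had the lowest mean and overlapped both 2-kPa groups. Among them Lum, which encodes the matrix proteoglycan lumican, had the pattern of Clu: it fell with stiffness on elastic gels (−0.66, adjusted p = 0.00544), was higher on viscoelastic gels at 20 kPa (0.70, adjusted p = 0.0014) and had a positive interaction of 1.09 (adjusted p = 0.00297). Thy1 went the other way in all 3 (0.47, −0.53 and −0.62, adjusted p = 0.00447, 0.000837 and 0.0109). At 20 kPa Dcn, Col3a1 and Vim were also higher and Prrx1 lower on viscoelastic gels, and Prrx1 was lower there at 2 kPa too. The part of these cartilage and fibroblast transcripts in the changes of C4b and Clu was not tested.

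**Figure D4:**
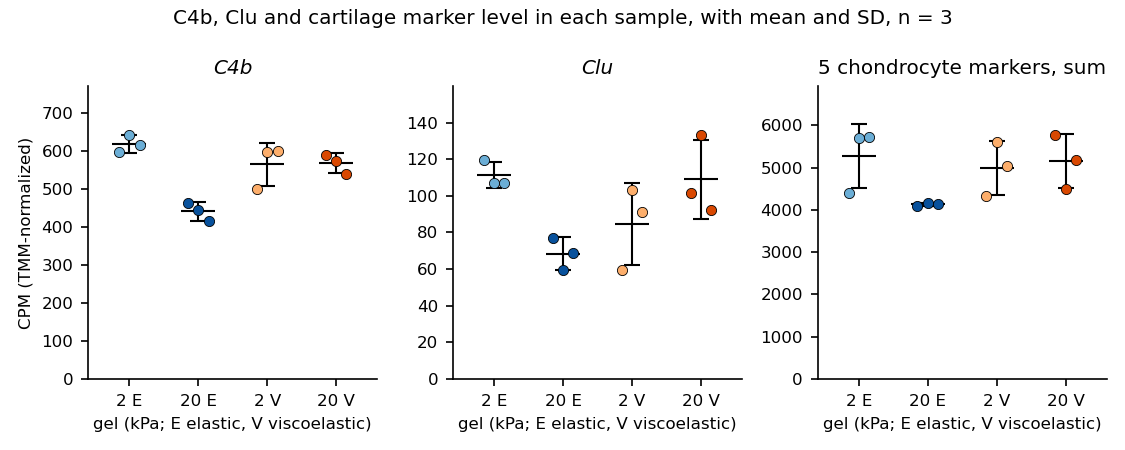
Levels of C4b, Clu and the sum of 5 chondrocyte markers (Acan, Col2a1, Col9a1, Matn1, Comp) in each sample, in CPM on linear axes from 0, with the group mean and SD (n = 3). In the C4b and marker panels the 3 samples on 20-kPa elastic gels (415 to 463 and 4096 to 4152 CPM) lie below all other samples. The marker sum was not tested.

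C1qtnf6 (chr15:78523346-78531416, minus strand) encodes a secreted protein with a C1q-like domain. Its levels were 43.7, 42.1 and 40.9 CPM on 2-kPa elastic gels, 35.9, 34.1 and 32.0 on 20-kPa elastic gels, 35.3, 41.6 and 37.3 on 2-kPa viscoelastic gels and 38.2, 36.9 and 34.7 on 20-kPa viscoelastic gels. It varied least of the 9, and only the 2-kPa elastic samples stood clear of both 20-kPa groups. On elastic gels it fell by 0.31 ± 0.07 (log2 ± SE) with stiffness (adjusted p = 0.00783). Neither change with gel type passed (−0.15 ± 0.07 at 2 kPa and 0.11 ± 0.07 at 20 kPa, adjusted p = 0.137 and 0.256), nor did any step between neighbours in the order of its means.

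Averaged over both stiffnesses, 6 of the 9 genes were higher on viscoelastic gels, against 19.6% of all tested genes. These were Serping1 (log2 1.10 ± 0.13), C1ra (0.92 ± 0.11), C1s1 (0.88 ± 0.11), Cfb (0.65 ± 0.17), Cd55 (0.55 ± 0.11) and C3 (0.31 ± 0.07), with adjusted p of 2.84e-05 to 0.00724. C4b, Clu and C1qtnf6 did not pass (0.12 ± 0.05, 0.14 ± 0.12 and −0.02 ± 0.05, the last with the opposite sign when libraries were scaled by total counts). Averaged over gel types, C4b and C1qtnf6 were lower at 20 kPa (−0.24 ± 0.05 and −0.18 ± 0.05, adjusted p = 0.0146 and 0.0279), where 4.11% of all tested genes fell. Cd55 was higher at 20 kPa by 0.35 ± 0.11, which did not pass by edgeR (adjusted p = 0.0524). It was called in 5 of 19 alternatives, among them DESeq2's Wald test (adjusted p = 0.015). The C1qtnf6 call was lost without the first or second 2-kPa elastic, the second or the third 20-kPa elastic, the third 2-kPa viscoelastic or the third 20-kPa viscoelastic sample (adjusted p of 0.0514 to 0.082), and the count of members called was 1 without 4 of these 6: the first or second 2-kPa elastic, the third 2-kPa viscoelastic or the third 20-kPa viscoelastic sample.

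The remaining pairs of groups differ in stiffness and gel type together. Between 20-kPa viscoelastic and 2-kPa elastic gels, C1ra, C1s1, Serping1 and Cd55 were higher on the former, where 15.9% of all tested genes rose, and C1qtnf6 was lower, where 15.5% fell. The ratios were 2.69 for Serping1 (2.06 to 3.52), 2.19 for C1ra, 2.13 for C1s1 and 1.86 for Cd55, with adjusted p of 7.91e-05 to 0.00065. For C3 the ratio of 1.19 (1.03 to 1.38) did not pass by edgeR (adjusted p = 0.0662). It was called in 6 of 20 alternatives, among them DESeq2's Wald test (adjusted p = 0.0364). C1qtnf6 fell by 0.21 ± 0.07 (adjusted p = 0.0329), which was lost with scaling by total counts (−0.16, adjusted p = 0.1) and without the first or second 2-kPa elastic or the second or the third 20-kPa viscoelastic sample (adjusted p of 0.0664 to 0.133). Between 2-kPa viscoelastic and 20-kPa elastic gels, 6 genes were higher on the former (C3, C4b, C1s1, C1ra, Cfb and Serping1), where 10.4% of all tested genes rose. Their ratios ran from 1.28 for C4b to 1.76 for Cfb, with adjusted p of 0.00485 to 0.0247. Of these, C3 lost its call without the third 20-kPa elastic or the third 2-kPa viscoelastic sample (adjusted p = 0.0901 and 0.0812), and Cfb without either of these or the second 20-kPa elastic sample (0.102, 0.0977 and 0.0779). The comparisons share samples, so their counts are not independent.

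Several members have close paralogs that could take or give reads, and how the counting treated reads with more than 1 place is not stated. Over the 12 samples C4a held 0.181% of the counts of C4b and C4a together, C1s2 0.0909% of those of the C1s pair, C1rb 0.0534% of the C1r pair and Cd55b 0.0123% of the Cd55 pair. Adding each paralog's counts to the member changed no call among the 9 genes in the 9 comparisons. The genes Gm16567, Gm16083 and Gm49490 lie antisense to C1s1, Cd55 and C1qtnf6 and were not analysed here, and without a stated strand setting reads from both strands cannot be told apart.

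The 5 tested genes whose profile over the 12 samples was closest to that of C3 were Smpdl3a, Rhobtb1, X4931428F04Rik, Ccdc166 and Tmem42, at a root mean square distance of 0.0648 to 0.0700 in centred log2 CPM, where C3 itself had an SD of 0.211. For Serping1, the member with the widest range of group means, they were Egfl6, C1s1, C1ra, Ucma and Kcnj15, at 0.149 to 0.184 against an SD of 0.661. The listed members C1s1 and C1ra thus ranked 2 and 3 among them. Ucma encodes a matrix-associated protein of cartilage.

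Of 58 other complement genes listed, 57 were in the table and 25 had enough counts to be tested. Transcripts of C1q, which carries C1r and C1s, were scarce: its chains C1qa, C1qb and C1qc had 12, 9 and 5 counts over the 12 samples. C2, the partner of C4 in the convertase, had 402 counts in all, and no test called it. The protease factor D (Cfd) had 9 counts and factor I (Cfi) 43, and the receptors C3ar1 and C5ar1 had 67 and 15. At 2 kPa 3 of the 25 were higher and 1 was lower on viscoelastic gels, and at 20 kPa 5 were higher and 1 was lower, where 8.77% and 17.4% of all tested genes rose and 11.1% and 16.1% fell. The median change of the 25 was 0.0055 at 2 kPa and 0.15 at 20 kPa on the log2 scale, beside 0.72 and 0.59 for the 9. Both lists were chosen with earlier results of these data known, so this contrast is a description only. With stiffness 4 were higher and 2 lower on elastic gels, where 6.81% of all tested genes rose and 7.14% fell, and 1 was higher on viscoelastic gels, where 1.58% rose.

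**Figure D5:**
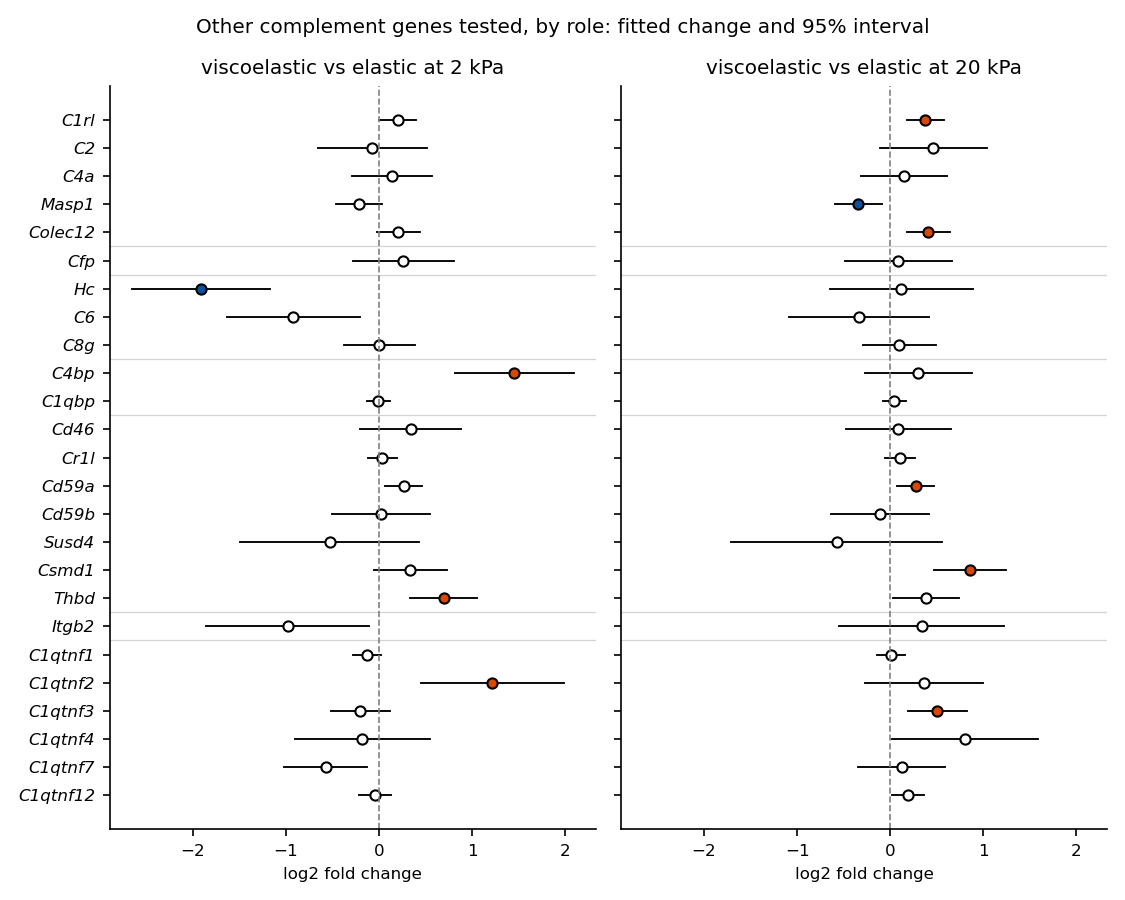
Fitted log2 fold change (point) with its 95% interval (line) of viscoelastic over elastic gels at 2 kPa (left) and 20 kPa (right), for the 25 other complement genes tested, with grey lines between roles (initiators, alternative pathway, terminal components, soluble regulators, membrane regulators, receptors, C1q/TNF-related proteins). Orange points rose and blue points fell at a BH-adjusted p under 0.05. Csmd1 is the highest point at 20 kPa (0.86) and Hc the lowest at 2 kPa (−1.91).

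Among initiators, C1rl, a relative of C1r, had means of 20.4, 18.0, 23.4 and 23.3 CPM on 2-kPa elastic, 20-kPa elastic, 2-kPa viscoelastic and 20-kPa viscoelastic gels and was higher on viscoelastic gels at 20 kPa (log2 0.38, adjusted p = 0.00671). The scavenger collectin gene Colec12 was higher there as well (0.41, adjusted p = 0.0093), from 540 to 717 CPM. Masp1, a protease of the lectin pathway, was lower there (−0.34, adjusted p = 0.0359) and higher with stiffness on elastic gels (0.42, adjusted p = 0.0275), with means of 189, 253, 163 and 200 CPM in the same order of groups. Masp1 thus moved against C1ra and C1s1 at 20 kPa.

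Among terminal components only Hc, which encodes C5, passed: its means were 1.07, 0.447, 0.284 and 0.486 CPM, and it was lower on viscoelastic gels at 2 kPa (−1.91, adjusted p = 0.00184) and lower at 20 kPa on elastic gels (−1.26, adjusted p = 0.017). With 8 to 62 counts per sample these values carry a large counting error. Among soluble regulators C4bp, encoding a cofactor for the breakdown of C4b, rose from 0.620 to 1.69 CPM with gel type at 2 kPa (1.45, adjusted p = 0.0039). C1qbp, encoding a mostly mitochondrial protein that binds C1q, was higher with stiffness on both gel types (0.18 and 0.23, adjusted p = 0.045 and 0.0455).

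Among membrane regulators Cd59a, which encodes a blocker of the membrane attack complex, was higher on viscoelastic gels at 20 kPa (0.27, adjusted p = 0.0344) and so was Csmd1 (0.86, adjusted p = 0.00245). Thbd, encoding thrombomodulin, was higher on viscoelastic gels at 2 kPa (0.70, adjusted p = 0.0094) and with stiffness on elastic gels (0.73, adjusted p = 0.0101). Its means of 168, 278, 272 and 363 CPM had the same order as those of Cd55 except for the middle groups, which were close. In the C1q/TNF family C1qtnf3 fell with stiffness on elastic gels (−0.52, adjusted p = 0.0311), as C1qtnf6 did, and was higher on viscoelastic gels at 20 kPa (0.51, adjusted p = 0.0173). C1qtnf2 was higher on viscoelastic gels at 2 kPa (1.22, adjusted p = 0.027) at under 1 CPM, and is named after its values were seen.

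A further list held 27 cytokines, receptors, signalling genes and acute-phase genes known to induce complement genes or to be induced with them, of which 21 were tested. At 2 kPa 8 were higher and 2 lower on viscoelastic gels, and at 20 kPa 3 were higher and 3 lower, where 8.77% and 17.4% of all tested genes rose and 11.1% and 16.1% fell. DESeq2's Wald test called the same numbers at 2 kPa, and 3 higher and 5 lower at 20 kPa, with Il6ra and Il6st among them. The median change was 0.18 at 2 kPa and 0.0065 at 20 kPa. With stiffness 5 were higher and 1 lower on elastic gels (6 and 2 by the Wald test), where 6.81% of all tested genes rose and 7.14% fell. On viscoelastic gels, where 1.58% rose and 0.695% fell, 0 passed by edgeR, with 7 at an unadjusted p under 0.05, while the Wald test of DESeq2 called 1 higher and 2 lower.

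Il6, the cytokine that drives the acute-phase response, had means of 7.38, 15.3, 19.2 and 13.9 CPM on 2-kPa elastic, 20-kPa elastic, 2-kPa viscoelastic and 20-kPa viscoelastic gels. It was higher on viscoelastic gels at 2 kPa (log2 1.38, adjusted p = 0.000616) and with stiffness on elastic gels (1.05, adjusted p = 0.00496). The genes of its receptor chains, Il6ra and Il6st, were higher in the same comparisons (0.43 and 0.42 with gel type, adjusted p = 0.0202 and 0.00346, and 0.52 and 0.33 with stiffness, adjusted p = 0.0101 and 0.0179). All 3 had a negative interaction, whereas those of C4b and Clu were positive. Lif, a cytokine of the same family, was lower on viscoelastic gels at 2 kPa (−1.30, adjusted p = 0.00559). Il1b and Ifng had no count, and Tnf had 5 counts in all.

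Among transcription factors and signalling genes, Cebpd rose from 67.2 to 101 CPM with gel type at 2 kPa and from 78.2 to 107 CPM at 20 kPa (0.59 and 0.46, adjusted p = 0.00134 and 0.00364). Cebpb rose in both as well (0.33 and 0.21, adjusted p = 0.00361 and 0.0223). Cebpa, of the same family, was highest on 2-kPa elastic gels (26.5 CPM, against 14.9, 15.1 and 17.4) and fell both with gel type at 2 kPa and with stiffness on elastic gels (−0.81 and −0.83, adjusted p = 6.29e-05 and 6.63e-05). Nfkbia, an inhibitor and target of NF-kB, was lower on viscoelastic gels at 20 kPa (−0.75, adjusted p = 0.00172) and higher with stiffness on elastic gels (0.69, adjusted p = 0.00652). Nfkb1 and Il1r1 were lower on viscoelastic gels at 20 kPa by small amounts (−0.20 and −0.17, adjusted p = 0.0146 and 0.0362), and Stat3 was lower between 20-kPa viscoelastic and 2-kPa elastic gels (−0.20, adjusted p = 0.0216).

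Among the acute-phase genes, Hp, encoding haptoglobin, rose from 11.1 to 22.7 CPM with gel type at 2 kPa and from 13.2 to 21.5 CPM at 20 kPa (log2 1.03 and 0.70, adjusted p = 0.00288 and 0.0138). Lcn2 and Saa3 rose with gel type at 2 kPa (0.82 and 1.00, adjusted p = 0.0101 and 0.0331).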

How the data were processed

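RNA of 12 samples, 3 for each of 4 gels, was analysed. The authors trimmed reads with Trimmomatic, aligned them to mm10 with STAR and counted them per gene with featureCounts and a GENCODE annotation. They deposited raw counts, without normalization, by gene symbol. The GENCODE release, strand setting and treatment of reads with several places are not given in the sources used here. The authors tested with DESeq2.

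Symbols were matched to GENCODE M21 for positions and exon lengths. Counts were fitted in R 4.3.3 with edgeR 4.0.16: genes passing filterByExpr (minimum count 10, minimum total 15), TMM scaling, a coefficient per group over all 12 samples, glmQLFTest, and Benjamini-Hochberg (BH) adjustment over the 14542 genes tested, called under 0.05. The common biological coefficient of variation was 7.50%. Intervals are 95% intervals from this fit. Log2 CPM for likeness had a prior count of 2. The procedure was tested on simulated data. The mean chi-square per gene between 2 samples of a group was 11.2 to 55.5, so no pair of samples was taken as one library.

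The members and the gene lists were chosen with earlier results of these data known. All 9 members are named. Genes of the other complement list and of the inducer list are named if called in any comparison with a group mean of at least 1 CPM, as are paralogs and the 5 genes nearest in profile to C3 and to the member with the widest range. Alternatives were DESeq2 1.42.0 (Wald test, or its size factors in edgeR), total-count scaling, every gene with a count tested, a threshold of 0.01, a replicate block, the compared samples alone, added paralog counts, and each sample left out in turn. A further gene of the other complement list is not reported here.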

Additional observations from a re-analysis of the deposited data

Results flagged for a closer look

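For 2 of the 9 complement genes the effect of stiffness differed between gel types by the interaction test of edgeR (positive where the stiffness effect was higher on viscoelastic gels, BH-adjusted p under 0.05, 3 samples per group). The difference was 0.49 on the log2 scale for C4b (adjusted p = 0.0118) and 1.07 for Clu (adjusted p = 0.0121). C4b was lower at 20 than at 2 kPa in 3 of 3 elastic samples set against the 2-kPa mean and higher in 2 of 3 viscoelastic samples, and Clu was lower in 3 of 3 elastic and higher in 3 of 3 viscoelastic samples. On viscoelastic gels neither change with stiffness passed by edgeR (0.0074 for C4b and 0.36 for Clu, adjusted p = 0.971 and 0.246). A rise with stiffness on those gels was thus not shown for either gene.

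Of the other genes, named because some comparison called them, 5 had an interaction that passed, 2 positive and 3 negative. That count comes from genes selected for a call, so it cannot be set against the share of all tested genes. Among all 25 other complement genes tested, 1 interaction was positive and 0 were negative. Among all 21 tested genes of the inducer list, 1 was positive and 3 were negative. Over all tested genes 4.45% had a positive and 3.12% a negative one. The difference was 2.03 for Hc (adjusted p = 0.0244). It was −1.52 for Il6 (adjusted p = 0.00569), −0.73 for Il6ra (adjusted p = 0.015), −0.61 for Il6st (adjusted p = 0.00582) and 1.03 for Cebpa (adjusted p = 0.000313). With 3 samples per group, no sample was examined as standing apart from its group.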

How the results depend on the processing

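The 9 comparisons were computed again with DESeq2's size factors or Wald test, total counts alone, every gene with a count tested, added paralog counts, a replicate block, an adjusted p under 0.01, the compared samples alone where 2 groups were compared, and each sample left out in turn. Counts of members called stayed within 1.5 times the count reported, except as follows. At an adjusted p under 0.01 the count fell to 2 for stiffness on elastic gels, and to 0 for mean stiffness and for the interaction. With every gene tested, the count for mean stiffness was 4. Leaving out 1 sample gave 2 to 5 for stiffness on elastic gels (2 without the first 2-kPa elastic sample) and 1 to 3 for mean stiffness (1 without the first or second 2-kPa elastic, the third 2-kPa viscoelastic or the third 20-kPa viscoelastic sample). Of the members' values, 1485 kept their direction and side of the threshold, 47 lost the call, 29 gained it and 30 changed sign. Changes of sign concerned values that were not called. The largest of these in the reported fit were the Serping1 interaction (−0.20 ± 0.25, log2 ± SE) and Cd55 with stiffness on viscoelastic gels (0.16 ± 0.15). The C1s1 interaction was −0.017 with DESeq2's size factors, −0.003774 with total counts, −0.009013 with every gene, −0.022 with the replicate block and −0.016 with the Wald test. With total counts C1qtnf6 (mean of gel type) was 0.015 and Clu (20-kPa viscoelastic against 2-kPa elastic) 0.013, and with the compared samples alone C4b with stiffness on viscoelastic gels was −0.009597. Leaving out 1 sample gave −0.11 to 0.18 for the C1s1, −0.052 to 0.22 for the C1ra and −0.39 to 0.014 for the Serping1 interaction. With stiffness on viscoelastic gels it gave −0.11 to 0.011 for C1qtnf6, −0.073 to 0.051 for C4b and −0.064 to 0.26 for Cd55. It gave −0.19 to 0.046 for Cfb with stiffness on elastic gels, −0.056 to 0.0033 for C1qtnf6 with gel type and −0.20 to 0.076 for Clu between 20-kPa viscoelastic and 2-kPa elastic gels. The cause was not tested. The replicate block left 4 members called for gel type at 2 kPa, without Cfb, and the same number as reported elsewhere. Samples that share a number had correlations of −0.200 to 0.308 between their deviations from the group means (18 pairs, 2 above 0.1). Those 2 lay between the viscoelastic groups, at 0.184 for the first and 0.308 for the second samples, with 0.048 for the third. The numbers were not taken as pairs, and a shared effect among viscoelastic samples was not tested. DESeq2 gave no adjusted p for Cfb in 2 comparisons. At 15 to 34 counts per sample, Cfb is limited by its low counts.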
